A study of Homo sapiens with 2 samples.

Results

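The AP-1 transcription factor genes were followed in chromatin accessibility data from G401 cells, an established human kidney rhabdoid tumor line that lacks the SWI/SNF subunit SMARCB1. The 10 genes were chosen by name from 20163 protein-coding genes: JUN, JUNB, JUND, FOS, FOSB, FOSL1, FOSL2, ATF3, BATF and BATF3. A promoter peak was any peak reaching to 3 kb or less from the transcription start site (TSS), and peaks within 50 kb of the TSS were taken as candidate regulatory regions, 174 of 114060 in the DMSO library and 208 of 161184 in the MAK683 library. A G401 culture with DMSO, the solvent, was compared with a culture given MAK683 at 3 µM for 3 days, an inhibitor that binds the EED subunit of the histone methyltransferase complex PRC2. ATAC-seq was used, in which the transposase Tn5 cuts accessible DNA. There was 1 library per group, so the differences given are between these libraries, without replicates and without p-values.

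AP-1 is a dimer of basic leucine zipper proteins. JUN proteins pair with each other or with FOS proteins, while FOS proteins need a JUN partner, and ATF3 and the BATF proteins are related zipper proteins that also pair with JUN proteins. The dimers bind the TPA response element (TRE), and dimers with ATF or CREB proteins favour the longer cAMP response element (CRE). FOS, FOSB, JUN, JUNB and ATF3 are induced within minutes by growth factors and stress, in part through serum response factor at a CArG box. AP-1 proteins act at many enhancers, where they can recruit SWI/SNF complexes.

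Heights were pileups of tags over the summit, given per 1000000 of the tags left after filtering (RPM). The libraries held 16598348 tags in DMSO and 18265284 in MAK683, so that 1 tag was worth 0.0602 and 0.0547 RPM. Over the whole genome the MAK683 peaks were more numerous and lower. As log2 of MAK683 over DMSO height, the median was -0.33 over 57983 regions with a peak in both libraries, and -0.46 over 14288 coding promoters with a peak in both, so the AP-1 genes are read against these values below. No peak fell within the 51.1 kb SMARCB1 gene in either library, while 92 and 96 peaks lay within 1 Mb of it. Of 5 genes that mark other cell types and were found in the annotation, PTPRC, CD3E, ALB and KRT5 lacked a promoter peak in both, and the endothelial gene CDH5 had a peak of 11 tags in MAK683. All intervals below are 95% intervals. Those of single heights and ratios cover counting error of the tags only. Those of medians are order-statistic intervals over genes or regions, and those of shares are Wilson intervals over peaks. With 1 library per group, none of them covers variation between cultures. Reads that carry no molecular identifier can be copies of a single molecule, which the intervals do not cover either.

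The sequence upstream of 4 of the genes is shown first, because it holds the elements through which AP-1 genes are known to be controlled. Each stretch was read from the GRCh37 genome in the direction of the gene, with the element in capitals. The JUN stretch (chr1:59249769-59249796, minus strand) carried TGACATCA, a TRE variant, starting 67 bases upstream of the TSS. The JUND stretch (chr19:18392615-18392642, minus strand) carried the CRE TGACGTCA at 200 bases upstream. The FOS stretch (chr14:75745207-75745236, plus strand) carried the CArG box CCATATTAGG at 314 bases upstream. The FOSB stretch (chr19:45970919-45970999, plus strand) carried a CRE at 325 bases and a CArG box, CCTTATATGG, at 274 bases upstream.
JUN promoter: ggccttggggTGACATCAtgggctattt
JUND promoter: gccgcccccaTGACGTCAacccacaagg
FOS promoter: cacaggatgtCCATATTAGGacatctgcgt
FOSB promoter: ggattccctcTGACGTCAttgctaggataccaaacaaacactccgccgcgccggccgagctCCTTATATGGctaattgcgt

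Over the 350 bases upstream of each TSS, searched on both strands, TGANTCA was found in 0 of the 10 AP-1 genes and in 6.73% of all coding promoters. TGACGTCA was found in 2 of the 10 (FOSB and JUND) and in 2.68% of all, and TGACATCA in 1 of the 10 (JUN) and in 2.25% of all. The CArG box was found in 2 of the 10 (FOS and FOSB) and in 1.70% of all. The GC box GGGCGG was in 9 of the 10 and 61.8% of all, and CCAAT in 4 of the 10 and 41.2% of all. These are matches of letters and say nothing of binding. The TRE variant, CRE and CArG box were sought because AP-1 genes are known to be controlled through them. Their higher shares among the 10 were thus partly fixed in advance and are no evidence of enrichment. Every one of the 5 elements printed above lay under a peak in both libraries. The JUN element was 21 bases from the summit of its DMSO peak and 217 bases from that of its MAK683 peak, and the JUND element 103 and 180 bases. The FOS element was 4374 and 2999 bases from the summits of the long peaks that covered it.

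Promoters of 9 of the 10 genes carried a peak in both libraries, and BATF, a factor of T and B lymphocytes, carried none in either. Over all coding genes, 72.7% had a promoter peak in DMSO and 78.7% in MAK683. Of the 9 promoters, 8 were lower in MAK683 and JUN alone was higher, whereas 86.5% of coding promoters were lower. The median log2 ratio of the 9 was -0.50 (order-statistic interval -0.58 to -0.14), close to the -0.46 of all coding promoters. A fall of at least 1.5-fold was seen in 1 of the 9, JUNB, against 36.0% of coding promoters, and a rise of that size in 0 of the 9, against 3.65%. JUND and FOSL1 fell just short of that cut, at 0.668 and 0.672 of their DMSO heights, so the count depends on where it is set. Raw tags, without depth scaling, put 6 of the 9 lower, with FOSL2 and BATF3 equal, and centring on the median of shared regions also put 6 lower, with FOSL2 and BATF3 at 0.19. With all peaks in the window summed, 5 were lower. The share of all coding promoters lower was not computed for these alternatives, so only the main count has a background beside it. The tallest peaks at FOSB, and that at FOS in DMSO, had summits over 3 kb from the TSS. With summits required within 3 kb, a choice made after seeing the data, FOS had no ratio and FOSB was at 0.67. Under that choice 6 of the 8 promoters with a ratio were lower, and their median was -0.34, beside -0.46 for coding promoters. The share of coding promoters lower was not computed under that choice either. As bulk data, these heights cannot tell fewer open copies of a site from less cutting at each copy.

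**Figure D1:**
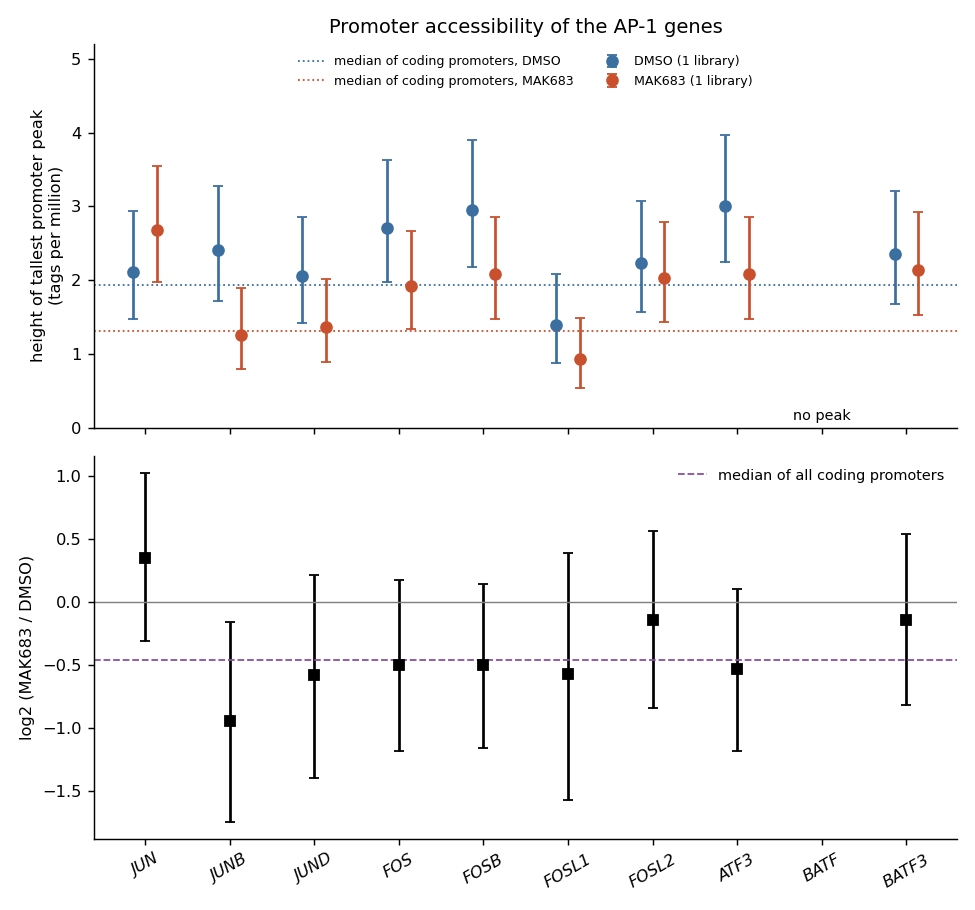
Height of the tallest promoter peak of each AP-1 gene in tags per 1000000 (top, exact Clopper-Pearson 95% intervals, 1 library per point, dotted lines at the medians of coding promoters) and the log2 ratio of MAK683 to DMSO height (bottom, exact binomial 95% intervals, dashed line at the median of coding promoters, -0.46). With depth scaling as plotted, JUN is the only gene whose MAK683 point stands above its DMSO point (FOSL2 and BATF3 turn to 0.19 after centring on shared regions), and the interval of JUNB lies below 0. The FOSB points, and the DMSO point of FOS, are from peaks with summits over 3 kb from the TSS. FOSB turns to 0.67 with summits required within 3 kb.

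JUN encodes the partner that most AP-1 dimers share. Its promoter peak held 35 tags in DMSO (2.11 RPM, 1.47 to 2.93) and 49 tags in MAK683 (2.68 RPM, 1.98 to 3.55). It was the tallest AP-1 promoter in MAK683, while 6 of the other promoters were taller in DMSO. The log2 ratio was 0.35 (-0.31 to 1.02), and relative to the median of coding promoters it was 0.81 (0.15 to 1.48). Among coding promoters with a peak, its height moved from the 58.7th percentile in DMSO to the 98.5th in MAK683, and its ratio stood at the 93.7th percentile. The median coding promoter fell from 1.93 to 1.31 RPM, so a peak could climb in rank without gaining tags. With equal tags in both libraries, FOSL2 moved from percentile 64.2 to 87.2 and BATF3 from 69.3 to 90.2, while JUNB fell from 71.7 to 47.5. The ranks were over 14660 genes in DMSO and 15875 in MAK683. The peak spanned chr1:59248794-59251633 in DMSO and chr1:59247240-59251559 in MAK683, with lengths of 2840 and 4320 bp. The longer MAK683 peak took in a stretch of the coding sequence that had a peak of its own in DMSO (13 tags), and the bases covered by peaks in the promoter window were 4111 and 5222. The interval of the ratio itself includes 0. Between 50 kb and 1 Mb from the JUN TSS, 13 shared regions had a median log2 ratio of -0.14, above the -0.33 of all shared regions. The share of this wider shift in the promoter value was not tested.

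JUNB, a weaker activator than JUN at many sites, went the other way. Its tallest promoter peak held 40 tags in DMSO (2.41 RPM, 1.72 to 3.28) and 23 in MAK683 (1.26 RPM, 0.798 to 1.89), where 2 peaks of 23 tags were tied. DMSO was thus the higher library, with a log2 ratio of -0.94 (-1.74 to -0.16) at the 8.15th percentile of coding promoters. With the heights of all peaks in the window summed the log2 ratio was -0.39, under a 1.5-fold fall. Relative to the coding median the ratio of the tallest peaks was -0.48, with an interval of -1.28 to 0.30 that includes 0. The peak covered the TSS, at chr19:12898832-12903257 in DMSO and with its summit before the TSS in both libraries. JUND, the JUN protein most evenly made in resting cells, held 34 tags in DMSO (2.05 RPM) and 25 in MAK683 (1.37 RPM). Its log2 ratio was -0.58 (-1.39 to 0.21), near the coding median.

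FOS and FOSB, the immediate-early FOS genes, lay under very long peaks. The FOS peak held 45 tags in DMSO (2.71 RPM) and 35 in MAK683 (1.92 RPM), a log2 ratio of -0.50 (-1.18 to 0.17). It spanned chr14:75743138-75752180 in DMSO, 9043 bp that cover the whole gene, and 8445 bp in MAK683. Ordered by length, these were the 66th and 31st longest peaks of their libraries. Their summits stood 4064 and 2689 bases downstream of the TSS, just past the annotated end of the gene in DMSO and inside the gene in MAK683. In FOSB, the tallest peak touching the promoter held 49 tags in DMSO (2.95 RPM) and 38 in MAK683 (2.08 RPM), a log2 ratio of -0.50 (-1.16 to 0.14). It ran for 12177 bp in DMSO and 10405 bp in MAK683, the 21st and 9th longest peaks, with summits 10574 and 7361 bases downstream of the TSS.

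Near the FOSB TSS the libraries were divided into peaks differently, so that no promoter ratio compares the same place. With only peaks whose summit lay within 3 kb of the TSS, a choice made after seeing the data, the tallest peak held 12 tags in DMSO (0.723 RPM) and 21 in MAK683 (1.15 RPM). The MAK683 peak had its summit 62 bases from the CArG box and 114 bases from the CRE, whereas in DMSO both elements lay under the long peak of 49 tags and the 12-tag peaks were upstream of it. FOS had no DMSO peak with a summit in that window and so no ratio. The other 7 promoters kept the same peaks and values under this choice, and the coding median stayed at -0.46 over 14141 genes.

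FOSL1 and FOSL2 encode the Fra proteins, which lack the strong activation domain of FOS and last longer after a stimulus. FOSL1 was the lowest promoter of the 9 in both libraries, with 23 tags in DMSO (1.39 RPM) and 17 in MAK683 (0.931 RPM), a log2 ratio of -0.57 (-1.57 to 0.39). Its peak spanned 2326 bp in DMSO, where MAK683 had separate peaks of 445 bp (14 tags) and 556 bp (17 tags) over the same stretch. Peaks covered 3285 bp of the promoter window in DMSO and 2404 bp in MAK683, and with their heights summed the log2 ratio was 0.18. FOSL2 held 37 tags in both libraries (2.23 RPM in DMSO and 2.03 in MAK683), and its log2 ratio was -0.14 (-0.84 to 0.56). ATF3, a stress-induced factor, had the tallest AP-1 promoter in DMSO, with 50 tags (3.01 RPM) against 38 in MAK683 (2.08 RPM) and a log2 ratio of -0.53 (-1.18 to 0.10). BATF3, known from dendritic cells, held 39 tags in both libraries (2.35 and 2.14 RPM, log2 ratio -0.14, -0.82 to 0.54). Neighbours in the order of heights had overlapping intervals in both libraries, so that order is a description.

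Counts of candidate regulatory regions differed widely among the genes. Around JUN, the 50 kb on either side held 4 peaks in DMSO and 25 in MAK683. Around ATF3 there were 11 and 30, around FOSL2 9 and 15, and around BATF 1 and 2. Around FOS the count was 37 in DMSO and 26 in MAK683, and around JUNB 27 and 21. JUND (21 and 22), FOSB (28 and 29), FOSL1 (26 and 28) and BATF3 (10 and 10) had nearly equal counts. MAK683 peaks were more numerous at 7 of the 10 genes and at least 2 times as many at 3 of the 10 (JUN, ATF3 and BATF), against 42.1% and 25.1% of coding genes with any peak in that window. The gain of 21 peaks at JUN stood at the 98.9th percentile of coding genes, the gain of 19 at ATF3 at the 98.3rd, and the loss at FOS, a difference of -11, at the 3.86th.

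**Figure D2:**
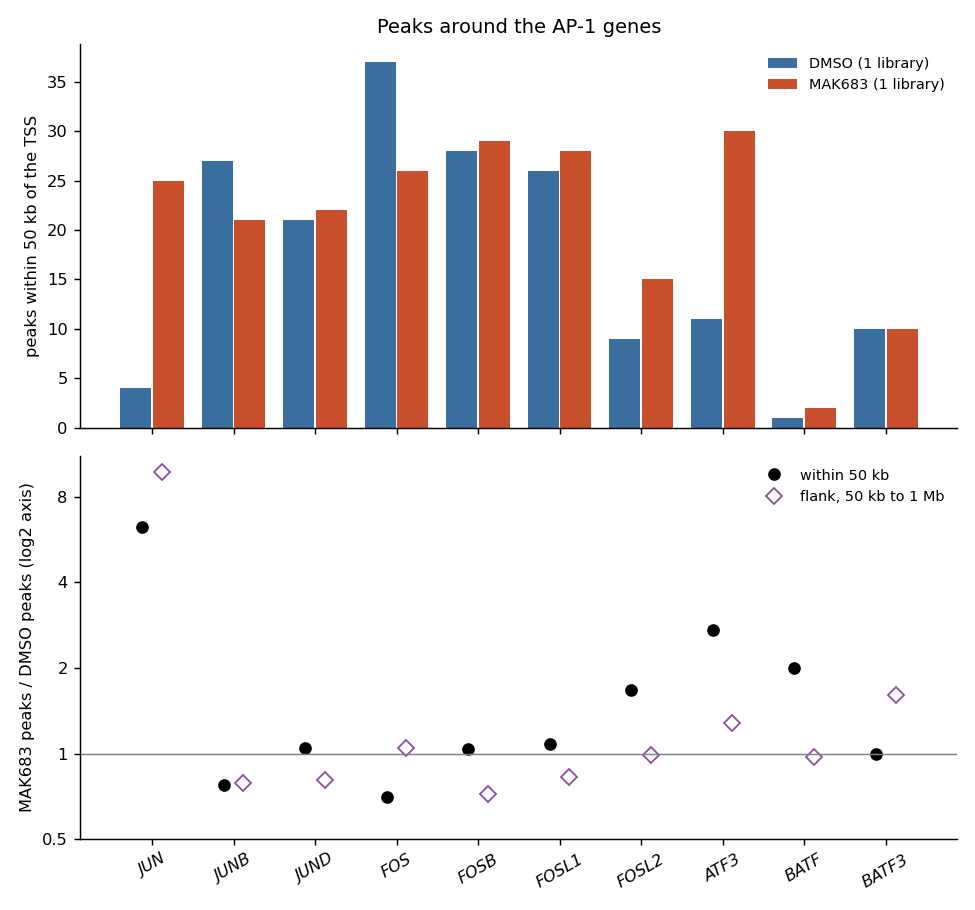
Number of peaks within 50 kb of each TSS (top, 1 library per bar) and the ratio of MAK683 to DMSO peak counts within 50 kb and in the flank from there to 1 Mb (bottom, log2 axis). JUN gains peaks both near the gene (4 to 25) and in its flank (20 to 196), whereas FOS, with 37 and 26 peaks, is lowest in the near ratio.

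The added peaks at JUN were low and were not limited to the gene. Of the 25 MAK683 peaks, 17 held at most 10 tags. With peaks of −log10 q of at least 5, a filter applied to these counts after seeing the data, there were 4 in DMSO and 8 in MAK683, and at 10 or more they were 2 and 3. In the flank beyond 50 kb and out to 1 Mb on either side, the DMSO library had 20 peaks and the MAK683 library 196, a ratio of 9.80, larger than the 6.25 within 50 kb. The 1 Mb window holding JUN had 16 and 141 peaks, a ratio of 8.81 at the 91.6th percentile of 2609 windows, and 218 windows, that of JUN included, had a ratio as high. Across the 1134 windows with under 20 DMSO peaks, the median ratio was 4.58. The share of this wider gain in the count at JUN was not tested.

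At ATF3 the gain was larger near the gene than in the flank. Its count was higher by 2.73-fold within 50 kb and by 1.28-fold in the flank (111 to 142 peaks), with 27 regions between 3 and 50 kb, 20 of them in MAK683 alone, none over 13 tags. At −log10 q of at least 5 the counts were 5 and 11, and at 10 or more 2 and 2. BATF3, whose TSS lies 91.1 kb from that of ATF3, had 10 peaks in each library, with 6 of its nearby regions in both, 1 in DMSO alone and 3 in MAK683 alone, while its flank held 96 and 155. At FOS the near ratio was 0.703 and the flank ratio 1.05. With the same stricter peaks the FOS counts were 26 and 15, and then 11 and 9. At JUNB the ratios were 0.778 near the gene and 0.786 in the flank. For JUND, FOSB and FOSL1 the near ratio was 1.05, 1.04 and 1.08, above flank ratios of 0.806, 0.719 and 0.827.

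**Figure D3:**
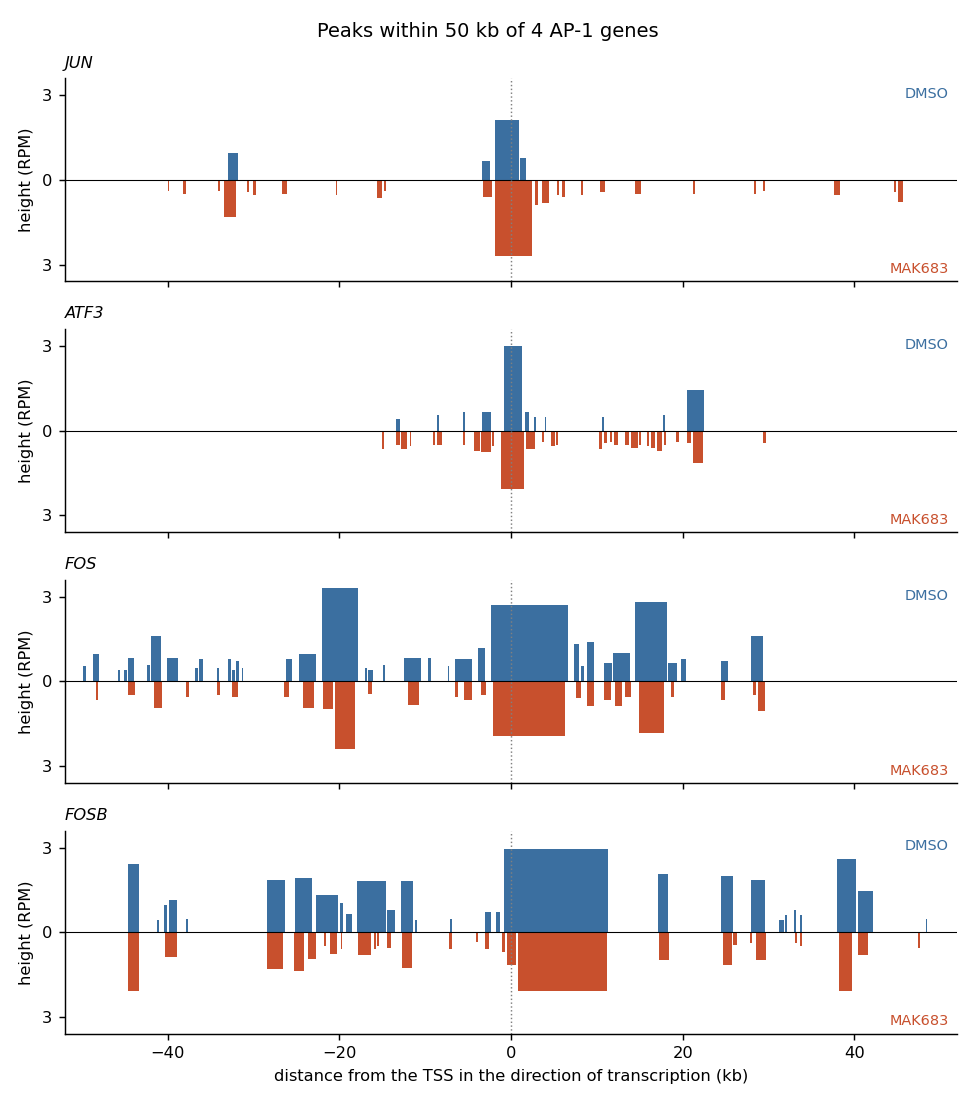
Peaks within 50 kb of JUN, ATF3, FOS and FOSB, drawn by distance from the TSS in the direction of transcription (kb), with DMSO heights upward and MAK683 heights downward in tags per 1000000. JUN and ATF3 carry many low peaks in MAK683, with at most 15 and 13 tags in a region seen there alone, while FOS and FOSB are covered by peaks of 9043 and 12177 bp in DMSO.

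Merging overlapping peaks gave 213 regions between 3 and 50 kb of the 10 genes. Of these, 89 (41.8%) were seen in both libraries, 54 (25.4%) in DMSO alone and 70 (32.9%) in MAK683 alone. Around all coding genes the shares were 33.2%, 31.3% and 35.5%. The median log2 ratio of the 89 was -0.39 (-0.51 to -0.28), and 85.4% of them were lower in MAK683. Over all coding genes the median was -0.36 and 78.9% were lower. JUN and ATF3, the genes with the largest gains in peaks, together held 49 regions, 41 of them (83.7%) in MAK683 alone. The share around all coding genes of chromosome 1 was 32.5%. A high share follows in part from picking this pair by its gains. BATF3, also on chromosome 1, had 3 of its 10 regions in MAK683 alone. The chromosome 19 genes (JUNB, JUND and FOSB) held 73, of which 8 (11.0%) were in MAK683 alone, beside 15.2% around all coding genes of that chromosome, and their shared regions had a median of -0.52, beside -0.45 for all coding genes there.

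**Figure D4:**
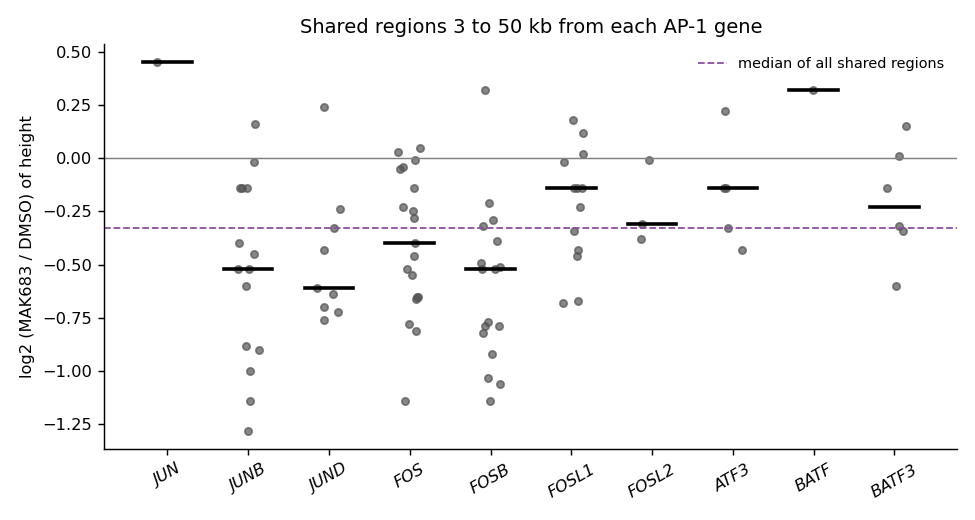
Log2 ratio of MAK683 to DMSO height for each region between 3 and 50 kb of an AP-1 gene that has a peak in both libraries (points, black bars at the median of each gene, dashed line at the median of all shared regions, -0.33). The medians of JUNB and FOSB are both -0.52 and that of FOSL1 is -0.14. JUN and BATF rest on 1 region each.

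The tallest region near FOS in both libraries, and in DMSO near any of the 10 genes, lay 19.7 kb upstream at chr14:75723561-75727702, in an intron of an annotated gene without a symbol. It held 55 tags in DMSO (3.31 RPM) and 44 in MAK683 (2.41 RPM), more than the FOS promoter itself, with a log2 ratio of -0.46 (-1.07 to 0.14). A further FOS region 15.5 kb downstream held 47 and 33 tags (2.83 and 1.81 RPM), with a log2 ratio of -0.65 (-1.34 to 0.02). No other coding TSS lay within 3 kb of these regions, nor anywhere within 50 kb of the FOS TSS. They stayed among the tallest in both libraries, and the DMSO library was the higher at each.

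At JUN, the tallest region lay 32.5 kb upstream in an intron of LINC01135 (chr1:59281475-59283179). It held 16 tags in DMSO (0.964 RPM) and 24 in MAK683 (1.31 RPM), a log2 ratio of 0.45 (-0.53 to 1.46), and was the only region outside the promoter seen in both libraries. A region 4.0 kb downstream of the TSS, inside the annotated JUN gene, held 15 tags in MAK683 and had no DMSO peak. FOSL2 had a similar region 14.7 kb upstream with 15 tags in MAK683 alone, and its tallest shared region, 36.3 kb upstream, held 13 and 11 tags. The tallest ATF3 region, 21.5 kb downstream, held 24 and 21 tags (log2 ratio -0.33, -1.25 to 0.58). That of BATF3, 34.4 kb downstream, held 39 and 34 tags (-0.34, -1.04 to 0.37). BATF, with no promoter peak, had a region 38.7 kb downstream with 8 and 11 tags.

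On chromosome 19 several tall regions belonged to other promoters. The FOSB region 38.9 kb downstream, at the VASP promoter, held 43 tags in DMSO and 38 in MAK683, and the region 44.4 kb upstream, at ERCC1, held 40 and 38. A FOSB region 17.5 kb downstream, at the end of RTN2 and over 3 kb from any coding TSS, held 34 and 18 tags, a log2 ratio of -1.06 (-1.97 to -0.19), and was named after its values were seen. JUNB regions 5.2 and 44.9 kb downstream both held 31 tags in DMSO, against 25 and 17 in MAK683, the farther one lying by MAST1 and RTBDN with an interval of its log2 ratio from -1.95 to -0.11. The JUND region 10.4 kb upstream held 32 and 23 tags, and a region 27.0 kb upstream held 15 tags in DMSO alone. At FOSL1, on chromosome 11, the regions 40.8 kb (CFL1 and MUS81) and 11.8 kb (FIBP and CCDC85B) downstream held 45 and 36, and 43 and 48 tags. The last of these, at 0.02 (-0.60 to 0.65), was the tallest region in MAK683 near any of the 10 genes.

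The letters TGANTCA, a loose form of the binding sequence of AP-1 itself, were then sought at the summits. Among peaks within 50 kb of the 10 genes, TGANTCA lay within 50 bp of the summit in 6 of 174 DMSO peaks (3.45%) and 9 of 208 MAK683 peaks (4.33%), and none of these was at JUN or JUNB. In 1 place, 23.1 kb upstream of JUND, it lay at the summit in both libraries, under 15 DMSO tags and 14 MAK683 tags. This site and the 3 tallest others outside UTR exons are shown, so that the match can be seen in its context near the genes that encode AP-1. The FOS match, TGAATCA, is not one of the stricter forms TGACTCA and TGAGTCA used below. The region with the FOSL1 match lies within 3 kb of the TSSs of C11orf68 and DRAP1. The letters are the GRCh37 plus strand for 50 bases on either side of the summit, with the site in capitals, at chr19:18415516-18415616 (DMSO, 15 tags), chr19:18342151-18342251 (MAK683, 21 tags, 50.2 kb downstream of JUND), chr14:75697332-75697432 (DMSO, 16 tags, 48.1 kb upstream of FOS) and chr11:65683272-65683372 (MAK683, 31 tags, 15.5 kb upstream of FOSL1).
JUND upstream: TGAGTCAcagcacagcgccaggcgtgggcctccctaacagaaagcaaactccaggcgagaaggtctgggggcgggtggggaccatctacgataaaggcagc
JUND downstream: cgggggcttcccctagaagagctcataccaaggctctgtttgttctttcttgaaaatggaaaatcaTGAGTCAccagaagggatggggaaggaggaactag
FOS upstream: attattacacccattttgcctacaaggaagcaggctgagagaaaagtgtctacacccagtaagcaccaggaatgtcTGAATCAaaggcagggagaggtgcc
FOSL1 upstream: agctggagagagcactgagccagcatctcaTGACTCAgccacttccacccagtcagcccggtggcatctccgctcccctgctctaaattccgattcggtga

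Over all peaks of the genome TGANTCA was about as frequent at summits as 5 kb away. This joins peaks near promoters, where it was less frequent than 5 kb away, with DMSO peaks far from promoters, where it was slightly more frequent. A stricter form of the site was slightly more frequent at summits over all peaks, but less frequent there near promoters. TGANTCA lay within 50 bp of the summit of 2.78% of peaks in DMSO (Wilson interval 2.68 to 2.88) and of 2.91% in MAK683 (2.83 to 2.99), and in 2.81% and 2.99% of windows of the same width 5 kb away. The stricter letters TGACTCA or TGAGTCA, chosen after seeing the data, lay at 1.75% of DMSO and 1.81% of MAK683 summits, beside 1.54% and 1.57% at 5 kb. Within 3 kb of a coding TSS, TGANTCA was at 1.80% of DMSO summits (1.65 to 1.97) and 1.95% of MAK683 summits (1.80 to 2.12), beside 2.87% and 2.68%. Among peaks over 3 kb from a coding TSS, TGANTCA was at 3.06% of DMSO summits (2.95 to 3.18) and 3.11% of MAK683 summits (3.02 to 3.21), beside 2.79% and 3.05%, and its share was higher among the tallest peaks. At 2 RPM or more it was 4.32% in DMSO (1943 peaks, 3.51 to 5.32) and 4.58% in MAK683 (568 peaks, 3.14 to 6.62), beside 2.68% and 2.29% at 5 kb. With the stricter letters these tall peaks gave 3.45% and 3.52%, beside 1.60% and 1.06%. The libraries' intervals overlapped at this height. Shared regions with the site at a summit had a median log2 ratio of -0.31 (2545 regions, -0.34 to -0.29) and those without it -0.33 (55438 regions). Over 3 kb from a coding TSS the order was the other way, -0.31 with the site and -0.29 without, and at a mean of 1 RPM or more there it was -0.45 and -0.43. Over all shared regions the mean GC content was 52.3% with the site and 56.6% without, and its part in these values was not tested.

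**Figure D5:**
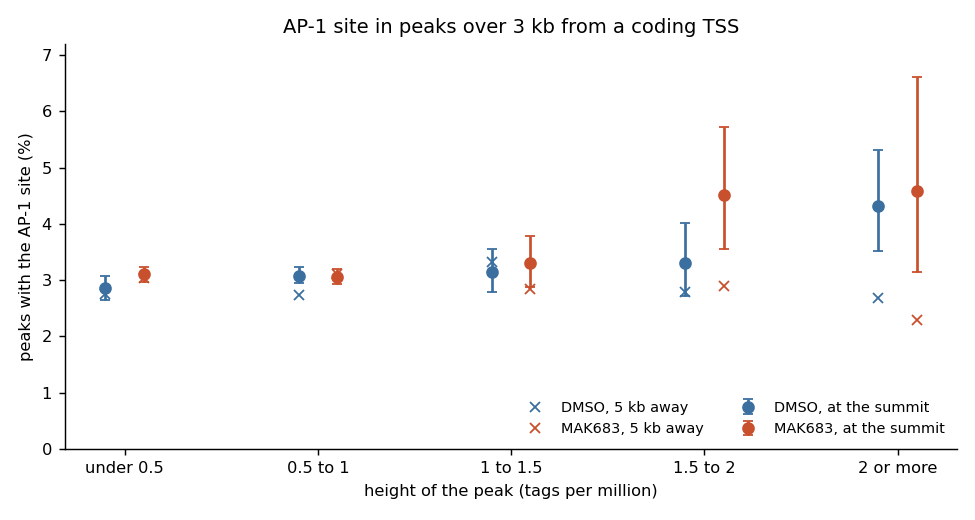
Percent of peaks over 3 kb from a coding TSS with TGANTCA within 50 bp of the summit, by height in tags per 1000000 (points, Wilson 95% intervals), beside the percent in windows 5 kb away (crosses). The share in both libraries is near that of the crosses for low peaks and reaches 4.32% in DMSO and 4.58% in MAK683 at 2 RPM or more.

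Promoters of genes that act with AP-1 are given beside all coding promoters, of which 86.5% were lower in MAK683 and 36.0% lower by at least 1.5-fold, with a median of -0.46. Of 13 partners and related zipper factors, 12 had a promoter peak in DMSO and 13 in MAK683, 10 of the 12 shared ones were lower in MAK683, and the median log2 ratio was -0.62. MAF, a large zipper factor, was the highest, with 13 tags in DMSO and 27 in MAK683 (0.92, -0.09 to 1.99), and MAFF, a small MAF protein without an activation domain, the lowest, with 34 and 17 tags (-1.14, -2.07 to -0.26). CREB5 had a promoter peak in MAK683 alone, of 15 tags. At least 1.5-fold falls were seen in 6 of the 12. Among shared promoters of the lists below, such falls were seen in 4 of 12 kinase and ternary complex factor genes. They were seen in 0 of 10 immediate-early and phosphatase genes and in 2 of 4 textbook targets.

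All 12 shared promoters of the 13 kinase and ternary complex factor genes upstream of AP-1 were lower in MAK683, with a median of -0.37, where 86.5% of all coding promoters were lower. The highest was the JNK kinase gene MAP2K4 (25 and 27 tags, -0.03, -0.87 to 0.82) and the lowest SRF, serum response factor (50 and 33 tags, -0.74, -1.42 to -0.07). MAPK10, a JNK gene mainly of neurons, had 8 tags in MAK683 alone. Of 10 immediate-early and feedback phosphatase genes, 10 had a peak in both libraries and 9 were lower, near that share, with a median of -0.45. DUSP4 was the highest (18 and 23 tags, 0.22, -0.74 to 1.19) and DUSP1 the lowest (47 and 35 tags, -0.56, -1.24 to 0.10).

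Of 8 textbook AP-1 targets, a promoter peak was called at 4 in DMSO and at 8 in MAK683. The matrix metalloproteinase genes MMP1 (9 tags), MMP3 (11 tags) and MMP9 (8 tags) and the adhesion gene CD44 (8 tags) had one in MAK683 alone. Their heights were between 0.438 and 0.602 RPM, where the median peak of that library was 0.547 RPM and the lowest 0.328 RPM. A missing call at such heights does not show a closed promoter. Of all coding genes, 7.87% (1587) had a promoter peak in MAK683 alone and 1.84% (372) in DMSO alone, and 28.8% of the genes without a DMSO peak had one in MAK683. The 4 shared targets were lower in MAK683 with a median of -0.61, from PLAU (27 and 26 tags, -0.19, -1.03 to 0.64) to the urokinase receptor gene PLAUR (42 and 26 tags, -0.83, -1.59 to -0.09).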

How the data were processed

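The methods of the study give Trim-galore for trimming and Bowtie2 for alignment to hg19. The authors then ran MACS 2.1.1.20160309, per the file headers, separately on the 2 libraries, shifting tags by -100 bp, extending them to 200 bp, keeping 1 tag per position, with a q-value cutoff of 0.05, no control and no local background, so regional coverage was not corrected. The deposited pileup is a coverage signal in whole tags. The deposited fold enrichment is a ratio to the genome-wide background, and the −log10 q-value and −log10 p-value that were deposited depend on depth. These served only as filters or alternatives.

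Pileups were divided by tags after filtering. GENCODE 44 lifted to GRCh37 gave 1 TSS per gene, and the tallest peak per window was used. Height intervals are Clopper-Pearson, ratio intervals exact binomial on tags, shares Wilson. Sequence came from GRCh37. The interval and merging code was tested on simulated data. The genes, gene lists and rules were chosen with earlier results of these data known. By rule, all 10 genes were named, with the highest, lowest and single-library genes of each list, and the tallest region of either library and single-library regions of at least 15 tags near each gene. PECAM1, a further cell type marker, was not matched in the annotation. Python 3.11.15, numpy 2.4.6, pandas 2.3.3, scipy 1.17.1 and pysam 0.24.0 were used.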

Additional observations from a re-analysis of the deposited data

How the results depend on the processing

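No paired analysis was possible because each group has 1 library. The presence of promoter peaks at 9 of the 10 genes held under both q filters, a 1 kb window and all basic TSSs, and was 8 in DMSO when summits had to lie within 3 kb. Of 80 promoter ratios of single genes under alternatives, 6 changed sign, 2 were at 0.00 (FOSL2 and BATF3 without depth scaling), and the other 72 kept their sign and stayed within the main interval. That count says little of robustness, because many alternatives could not move single genes. Both q filters, the 1 kb window and all basic TSSs returned the main ratio for every gene. Leaving out depth scaling and centring each shifted all ratios by the same amount. Centring on the median of shared regions put FOSL2 and BATF3 at 0.19 each. Summing all peaks in the window put JUNB at -0.39, FOSB at 0.05, FOSL1 at 0.18 and BATF3 at 0.30, with 5 of 9 promoters lower in place of 8. The share of all coding promoters lower with peaks summed was not computed. Requiring the summit within 3 kb gave 0.67 for FOSB, from peaks at different places in the 2 libraries. The median of the promoters ranged from -0.17 to -0.50 and never changed sign.

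The share of nearby regions in MAK683 alone, 32.9%, was 40.8% within 20 kb, 44.1% with at least 50% mutual overlap, 44.8% with summits at most 150 bp apart, 16.7% at −log10 q of at least 5 and 1.79% at 10. The share in both libraries, 41.8%, was 23.2%, 21.3%, 53.3% and 66.1% under the last 4 of these. The median ratio of shared nearby regions, -0.39, was -0.25 without depth scaling and -0.06 after centring. The AP-1 site share was 5.51% in DMSO and 5.85% in MAK683 within 100 bp of the summit, 2.72% in MAK683 at −log10 q of at least 5, and 1.75% and 1.81% with TGACTCA or TGAGTCA (1.54% and 1.57% at 5 kb). With 17 to 50 tags per promoter peak, changes of the size seen at most promoters could not be told from counting error.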
